A study of Rattus norvegicus with 13 samples.

Results

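Fat taken from 13 daughters of male rats was sorted by its content of skeletal muscle RNA, read from Myh4, the myosin heavy chain of the fastest limb muscle fibres. Pieces of fat whose Myh4 level was above 10 on the log2 scale were called muscle-bearing, and pieces below 8 were called muscle-free. This gave 4 muscle-bearing arrays, from control daughters 662 and 664 and high-fat daughters 619 and 629, and 9 muscle-free arrays, from 5 control and 4 high-fat daughters. The muscle-bearing levels of Myh4 were 12.31 in control 662, 12.72 in control 664, 10.85 in high-fat 619 and 13.25 in high-fat 629. The muscle-free levels ran from 6.53 to 6.99. The array just inside the upper threshold was thus high-fat 619, the array just outside it was high-fat 624 at 6.99, and the 3.85 log2 units between them held no array. The arrays were thus chosen by their measured Myh4 levels, which are given as a description only.

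The daughters were of the outbred Sprague Dawley strain, and each gave 1 array. The 7 control daughters had fathers on standard chow with 9% fat and the 6 high-fat daughters had fathers on pellets with 43% fat. Breeding with chow-fed females took place when the fathers were 15 weeks old. All daughters were weaned at 3 weeks, ate chow, and gave their fat at 14 weeks. The labels name the tissue as fat, name no depot, and do not mention muscle. They also give no litter or father for any daughter, and the p-values therefore measure only the spread between these samples.

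The fat identity of all 13 pieces was checked on adipocyte genes. Adipoq, the adipocyte hormone adiponectin, had levels of 13.72, 13.76, 13.92 and 13.64 in control 662, control 664, high-fat 619 and high-fat 629, and 13.80 to 13.96 in the muscle-free arrays with a median of 13.87. Control 662, control 664 and high-fat 629 lay slightly below the muscle-free range and high-fat 619 within it, and adiponectin RNA was abundant in every piece. In a bulk sample, more cells of a type and more RNA per cell cannot be told apart, and the level of Myh4 gives no share of muscle in the piece. Daughters carry numbers from 619 to 631 or from 656 to 664. Both muscle-bearing high-fat arrays lie in the first range and both muscle-bearing control arrays in the second, so within the muscle-bearing set the diet of the father and the number range cannot be told apart.

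A skeletal muscle fibre is packed with sarcomeres, in which thick filaments of myosin pull on thin filaments of actin, troponin and tropomyosin. Fast fibres use the myosins encoded by Myh4, Myh1 and Myh2, and slow fibres use Myh7, together with separate fast and slow sets of light chains and troponins. Contraction is started by calcium released from the sarcoplasmic reticulum and is fuelled through creatine kinase, glycogen breakdown and mitochondria. Adult fibres are multinucleate cells outside adipose tissue, although fat depots lie against body wall or limb muscle.

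Regulatory sequence in front of such genes is known for E-boxes bound by the MyoD family and for sites of the MEF2 and serum response factors. RefSeq promoters of the rat assembly GRCr8, from 250 bases before to 50 bases after the annotated start, are printed for 3 genes that were high in muscle-bearing arrays. Myh4 (chr10:52421898-52422197, plus strand) is the gene that defined the split, Ckm (chr1:88189211-88189510, plus strand) encodes muscle creatine kinase, and Klhl41 (chr3:74841868-74842167, plus strand) encodes a kelch protein of the sarcomere. Capitals mark the E-box CAGCTG in all 3 and, in Klhl41 only, the longer run in capitals matching the MEF2 consensus.
Myh4: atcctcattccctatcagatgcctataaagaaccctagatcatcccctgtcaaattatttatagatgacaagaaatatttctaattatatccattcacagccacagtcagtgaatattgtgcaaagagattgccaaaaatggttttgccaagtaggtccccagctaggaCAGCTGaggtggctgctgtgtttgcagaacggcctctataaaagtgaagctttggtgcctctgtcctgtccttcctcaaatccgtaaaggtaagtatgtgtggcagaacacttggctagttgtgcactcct
Ckm: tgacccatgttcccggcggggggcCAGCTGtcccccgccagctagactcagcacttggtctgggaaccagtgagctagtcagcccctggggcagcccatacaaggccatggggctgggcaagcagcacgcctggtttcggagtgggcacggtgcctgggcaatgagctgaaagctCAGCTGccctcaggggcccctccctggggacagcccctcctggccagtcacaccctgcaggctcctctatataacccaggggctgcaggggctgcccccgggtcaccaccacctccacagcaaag
Klhl41: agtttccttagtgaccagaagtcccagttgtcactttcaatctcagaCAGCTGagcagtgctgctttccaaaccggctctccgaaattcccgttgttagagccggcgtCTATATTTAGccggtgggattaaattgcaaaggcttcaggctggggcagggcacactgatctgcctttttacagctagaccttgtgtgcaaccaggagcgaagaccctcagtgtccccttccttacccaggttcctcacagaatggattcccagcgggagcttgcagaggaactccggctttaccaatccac
The promoter of Ckm held 2 copies of CAGCTG and those of Myh4 and Klhl41 held 1 each. Over a set of 55 skeletal muscle genes described further on, 48 had a promoter in the table, and CAGCTG, searched on both strands, lay in 19 of them (39.6%) against 15.1% of 27457 promoters of the same length. The MEF2 consensus lay in 7 of the 48 (14.6%) against 0.605% of all promoters, the CArG box of serum response factor in 6.25% against 1.64%, and TATAAA in 35.4% against 14.3%. CANNTG, the general E-box, which includes CAGCTG, lay in 83.3% against 71.6%. The 55 genes were chosen by their calls in the split. In the lists of fast and slow fibre genes described further on, 10 promoters each were available. The MEF2 consensus lay in 0 of the fast and 1 of the slow promoters, and CAGCTG in 3 and 4. Such matches describe letters in a window and are no measure of binding.

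Across 14506 genes, limma with the diet of the father as covariate called 99 genes higher in muscle-bearing arrays at an adjusted p under 0.05, which is 0.682% of the genes tested, and 0 lower. With no adjustment, 624 genes were higher (4.3%) and 270 lower (1.86%) at a p under 0.05. This balance turned with the scaling, to 484 higher and 659 lower after centring each array on its median and to 592 and 626 after renewed quantile normalization. The median difference of all genes was -0.01 log2 units. The arrays of the 2 sets did not overlap in 93 genes with muscle-bearing arrays higher (0.641%) and in 17 with muscle-bearing arrays lower (0.117%). Of 129 measured genes in 11 lists of skeletal muscle genes, 55 were among the 99. Because these genes travel with the gene that chose the arrays, their differences between the sets are described below by level and size without a test. The count depended on single arrays: it was 221 higher and 2 lower without high-fat 619, 42 without control 662, 61 higher and 1 lower without control 664, and 64 higher and 1 lower without high-fat 629. Of the 99 genes, 98 were called again without high-fat 619. With the number range as a further term 82 genes were called, 80 of them among the 99. Within the range 656 to 664, with 2 muscle-bearing and 4 muscle-free arrays, 75 were called, 63 of them among the 99. Within the range 619 to 631, where 1 of the 2 muscle-bearing arrays is high-fat 619, 0 were called in limma, with 277 higher and 475 lower at an unadjusted p under 0.05.

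The myosin heavy chains differed widely among themselves. Myh1, the chain of fast IIx fibres, stood at 12.06 in control 662, 11.08 in control 664, 6.02 in high-fat 619 and 11.40 in high-fat 629, against 5.25 to 5.61 in muscle-free arrays (median 5.49). All 4 arrays lay above every muscle-free array, but high-fat 619 only barely, although its Myh4 was clearly raised. The difference between the sets was 5.50 ± 0.30 log2 units (SE, 4 against 9 arrays) for Myh4 and 4.73 ± 0.75 for Myh1. The fit takes 1 spread per gene over both sets, yet the SD of Myh1 was 2.78 in muscle-bearing and 0.12 in muscle-free arrays. The SE of such genes therefore understates the spread among the muscle-bearing arrays. Myh2, the chain of fast oxidative fibres, was 9.72 and 10.13 in the control arrays 662 and 664 and 6.21 and 6.31 in high-fat 619 and 629, against 5.99 to 6.49 in muscle-free arrays (median 6.27). Myh7, the slow chain, was 9.93 and 10.12 in control 662 and 664 and 7.03 and 7.14 in high-fat 619 and 629, against 6.79 to 7.17 (median 6.98). For both genes the control arrays stood far above the muscle-free range and the high-fat arrays lay inside it. Embryonic Myh3 differed by 0.23 ± 0.10, Myh7b by 0.09 ± 0.07 and Myh13, the chain of eye muscles, by 0.06 ± 0.08, and each overlapped between the sets.

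**Figure D1:**
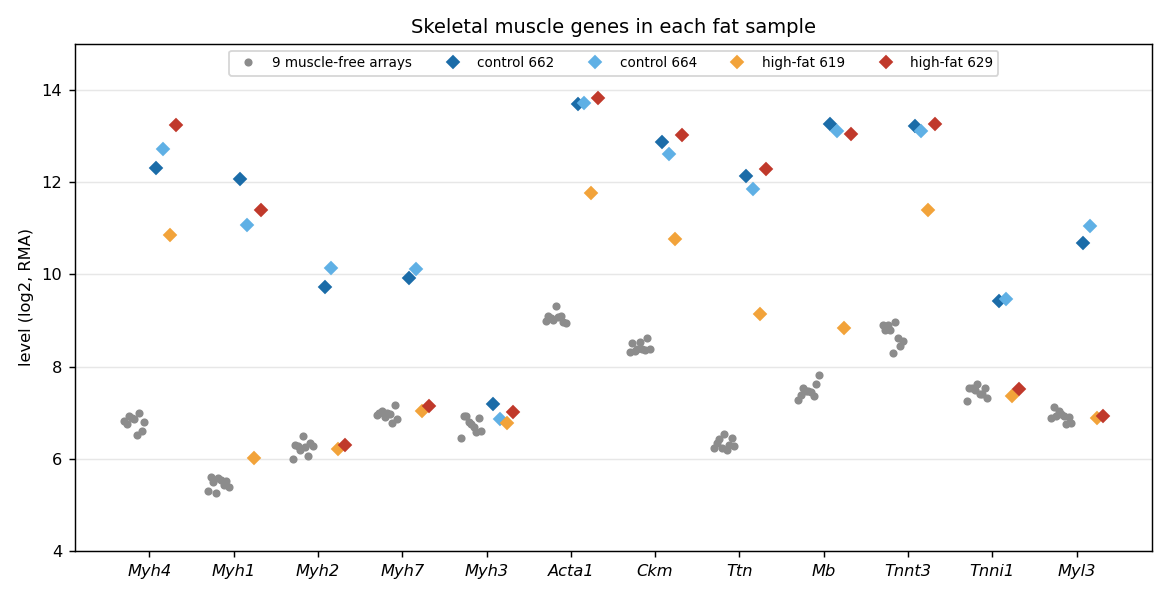
Level (log2, RMA) of 12 skeletal muscle genes in each array, with 9 muscle-free arrays as grey points and the 4 muscle-bearing arrays as coloured diamonds. High-fat 619 lies below the other muscle-bearing arrays in most genes, and Myh2, Myh7, Tnni1 and Myl3 are raised in the control arrays 662 and 664 alone.

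Proteins of the thick and thin filament and the elastic scaffold carried some of the largest differences. Acta1, skeletal alpha-actin, stood at 13.70, 13.72, 11.77 and 13.83 in control 662, control 664, high-fat 619 and high-fat 629, against 8.95 to 9.31 in muscle-free arrays (median 9.04), a difference of 4.21 ± 0.27. Titin (Ttn), the spring that spans the sarcomere, stood at 12.13, 11.85, 9.15 and 12.29 against 6.19 to 6.53 (median 6.30), a difference of 5.05 ± 0.41. The essential light chain Myl1 stood at 13.48, 13.31, 11.82 and 13.59 against 8.01 to 8.65 (median 8.26), a difference of 4.79 ± 0.24. In each of these genes the 2 sets were separated completely, with high-fat 619 the lowest of the 4. All 5 measured genes of the myosin light chain list, all 6 of the fast thin filament list and all 6 of the slow thin filament list had differences above 0, with medians of 3.12, 3.74 and 0.96. Of 21 genes of the Z disc, M band and titin list, 20 were above 0 and the median was 1.73, led after titin by Myot, the Z disc protein myotilin (4.72), and Xirp2, an actin-binding repeat protein (4.71). Ankrd1, a stress-responsive ankyrin repeat protein of the I band, was the exception at -0.10.

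Desmin (Des), the intermediate filament of all muscle types, did not separate the sets. It was 11.82, 11.69, 9.65 and 12.05 in control 662, control 664, high-fat 619 and high-fat 629, and 8.63 to 11.83 in muscle-free arrays with a median of 9.03. The highest muscle-free value came from control 658, and the next muscle-free arrays were much lower. Pdlim3, a Z disc adaptor also found in smooth muscle, was 9.35 in control 658 against a muscle-free median of 7.08. The mean level of 11 smooth muscle genes in control 658 was 11.13, against 9.32 for the lowest and 9.59 for the median muscle-free array, while its Myh4 level was 6.87, and the part of smooth muscle RNA in these 2 values was not tested.

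The machinery of excitation and contraction moved with the filaments. Atp2a1, the calcium pump of fast fibres, stood at 12.77, 12.56, 10.66 and 13.14 in control 662, control 664, high-fat 619 and high-fat 629, against 7.29 to 7.53 (median 7.39), a difference of 4.88 ± 0.31. Pvalb, the calcium buffer parvalbumin, stood at 11.38, 11.03, 8.40 and 12.09 against 5.78 to 6.12 (median 5.90), a difference of 4.85 ± 0.45. Ryr1, the calcium release channel, stood at 10.58, 10.30, 8.17 and 10.87 against 7.16 to 7.56 (median 7.41), a difference of 2.63 ± 0.35. None of the 3 genes overlapped between the sets. Triadin (Trdn), which anchors the release complex, differed by 4.34 and the channel subunit Cacng1 by 2.59. Of the 19 genes of this list 17 were above 0, with a median of 0.92. The calcium pump regulators Sln (sarcolipin) at -0.05 and Pln (phospholamban) at 0.07 overlapped between the sets.

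Genes of the neuromuscular junction, the membrane complex and cell identity were far less raised. In the junction list of 11 genes the median was 0.12 (0.07 without control 662 or control 658), with Chrnb1, a subunit of the muscle acetylcholine receptor, at 0.55 and its partner Chrna1 at -0.24. Chrna1 stood at 9.79 to 11.39 in the muscle-free arrays (median 10.77) and at 10.22, 10.84, 10.54 and 10.09 in control 662, control 664, high-fat 619 and high-fat 629, so all 4 lay within the muscle-free range. The 10 genes of the dystrophin complex and muscle membrane were all above 0, with a median of 0.47 (0.26 without high-fat 629) and a highest value of 1.94 for Popdc3, a membrane protein of striated muscle. Among 11 regulators of muscle development the median was 0.08, and 0.05 to 0.13 when 1 array was left out. Myf6, the MyoD family member kept on in mature fibres, stood at 9.05, 9.15, 6.66 and 9.78 against 6.37 to 6.67 (median 6.48), so high-fat 619 alone stayed within the muscle-free range. Smyd1, a methyltransferase needed for sarcomere assembly, differed by 1.30, whereas Myod1 and Myog, which act in muscle precursors, differed by 0.29 and 0.24 and Pax3 by -0.27. Among 11 genes of protein turnover all were above 0, with a median of 0.60, led by Klhl41 (3.47), Trim63, the ubiquitin ligase MuRF1 (1.50), Asb2, a ubiquitin ligase adaptor (1.33), and Fbxo32, the ubiquitin ligase atrogin-1 (1.15).

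All 22 measured genes of muscle energy supply were above 0, with a median of 1.30. Ckm, which regenerates ATP from phosphocreatine, stood at 12.87, 12.62, 10.77 and 13.03 in control 662, control 664, high-fat 619 and high-fat 629, against 8.32 to 8.62 (median 8.38), a difference of 3.91 ± 0.30. Pygm, muscle glycogen phosphorylase, stood at 13.14, 12.78, 11.01 and 13.27 against 8.02 to 8.43 (median 8.32), a difference of 4.32 ± 0.29. Mb, the oxygen carrier myoglobin, stood at 13.27, 13.11, 8.83 and 13.04 against 7.27 to 7.82 (median 7.46), a difference of 4.61 ± 0.59. The sets did not overlap in any of these, and the distance of high-fat 619 from the other 3 was larger for Mb than for Ckm or Pygm. Eno3, muscle enolase, differed by 3.81, Ampd1, muscle AMP deaminase, by 3.53, and Ppp1r3a, the glycogen-targeting subunit of protein phosphatase 1, by 2.75.

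Many of these enzymes have a second form that other tissues use, and 21 of 25 listed pairs of forms were measured on both sides. The form typical of muscle had the larger difference in 20 pairs. It did not separate the sets in every pair. Cox8b, Cpt1b, Fbp2, Gys1, Slc25a4, Ldha, Acacb, Tpm1, Fabp3, Slc2a4 and Aldoa overlapped between them. Acta1 differed by 4.21 while Actb, cytoplasmic beta-actin, differed by -0.11, and Atp2a1 differed by 4.88 while the widely used pump Atp2a2 differed by 0.18. Ckm stood against Ckb at 3.91 and -0.14, Eno3 against Eno1 at 3.81 and 0.03, and the cytochrome oxidase subunit Cox6a2 against Cox6a1 at 2.69 and -0.05. Glycogen synthase was the exception, at 0.41 for the muscle form Gys1 and 0.52 for the liver form Gys2. The median over the 21 pairs was 1.37 for muscle forms and -0.03 for the others, which ran from -0.18 to 0.52. In the fit over all genes 0 of the other forms passed an adjusted p under 0.05 in limma, against 0.682% of all genes. Pygl and Atp2a2, 2 of the 21, were higher at an unadjusted p under 0.05, against 4.3% of all genes.

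**Figure D2:**
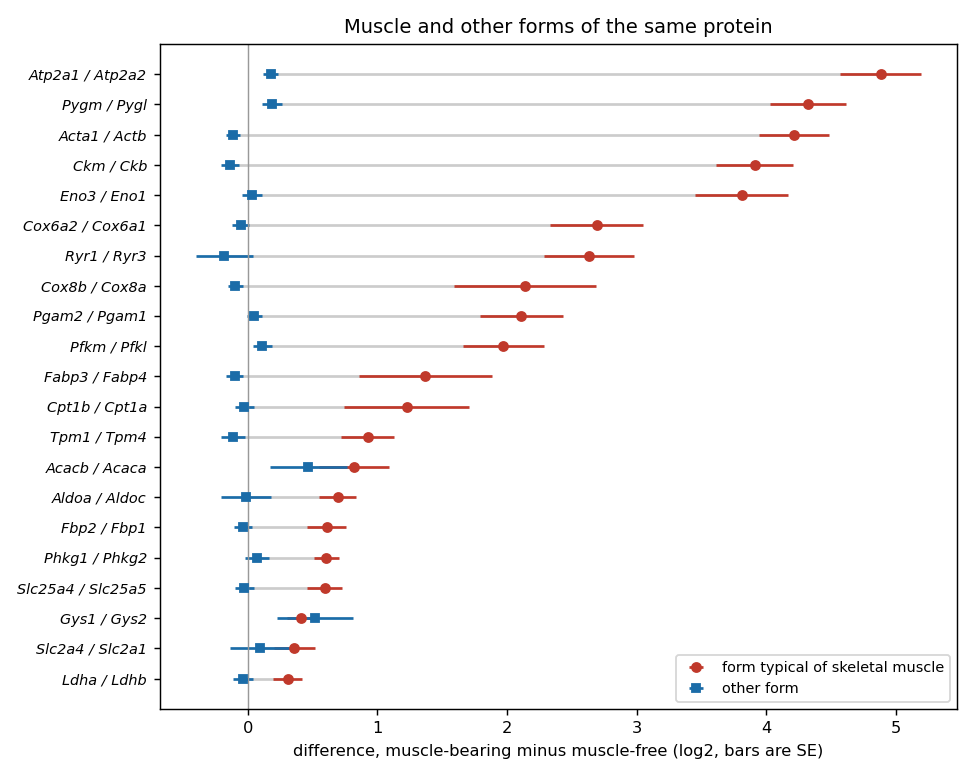
Difference between muscle-bearing and muscle-free arrays (log2) for the muscle form (red) and the other form (blue) of 21 proteins, with bars of 1 SE. Muscle forms reach 4.88 for Atp2a1, whereas the other forms stay between -0.18 and 0.52.

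The amount of muscle RNA differed among the 4 muscle-bearing arrays. Over the 129 muscle genes, the median level above the mean of the muscle-free arrays was 1.08 in control 662, 0.88 in control 664, 0.09 in high-fat 619 and 1.0 in high-fat 629. Counted against the highest muscle-free array, 105, 90, 48 and 95 of the 129 genes were higher in these arrays in the same order. Of the 55 called genes, high-fat 629 was the highest array in 46 and control 662 in 9, and high-fat 619 was the lowest in 54. High-fat 619 therefore carried the least muscle signal, and its distance from the other 3 differed between genes. On the linear scale, its level above the muscle-free mean, as a percentage of the mean of the other 3 arrays, ran from 0.7% for Myh1 to 30.0% for Myl1 over the 26 genes with a difference above 3, with a median of 9.5%. It was 24.5% for Myh4, 22.3% for Acta1, 19.9% for Ckm and 3.1% for Mb. Array signal is compressed at its ends, so these percentages are no shares of tissue.

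The 4 arrays also differed in the kind of fibre whose genes they carried. A list of 12 fast fibre genes and a list of 13 slow fibre genes were assembled from textbook knowledge after values had been seen, and are described without a test. The fast list leaves out Myh2 and Tpm1, which are counted as fast genes elsewhere in this text. Myh2 lay within the muscle-free range in both high-fat arrays, and Tpm1 overlapped between the sets. The 12 listed fast genes lay above every muscle-free array in all 4 muscle-bearing arrays. Their median level above the muscle-free mean was 4.67 in control 662, 4.47 in control 664, 2.08 in high-fat 619 and 5.27 in high-fat 629. Of the 13 slow genes, 10 lay above every muscle-free array in control 662, 9 in control 664, 0 in high-fat 619 and 3 in high-fat 629, with medians of 1.07, 1.29, 0.03 and 0.06. High-fat 629 had the highest median of fast genes and almost none of the slow signal. Its 3 slow genes above the muscle-free range were Myl2, Atp2a2 and Pln. The ventricular and slow light chain Myl3 showed the contrast most clearly, at 10.69 in control 662 and 11.04 in control 664, against 6.89 in high-fat 619, 6.92 in high-fat 629 and 6.75 to 7.13 in muscle-free arrays (median 6.92). Slow troponin I (Tnni1) was 9.42 and 9.46 in the 2 control arrays, 7.36 and 7.52 in the 2 high-fat arrays and 7.25 to 7.62 in muscle-free arrays (median 7.49). Several slow fibre genes, such as Myh7, Myl2, Myl3 and Tnnc1, are also expressed in the heart. The 8 measured members of a separate heart list, such as Myh6 and Tnni3, had a median difference of -0.004 between the sets and ran from -0.10 to 0.11. The mean level of the heart list was 7.23 in control 662, 7.14 in control 664, 7.09 in high-fat 619 and 7.17 in high-fat 629. It was 7.025 to 7.31 in muscle-free arrays. A part of heart RNA in the slow signal was not tested.

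**Figure D3:**
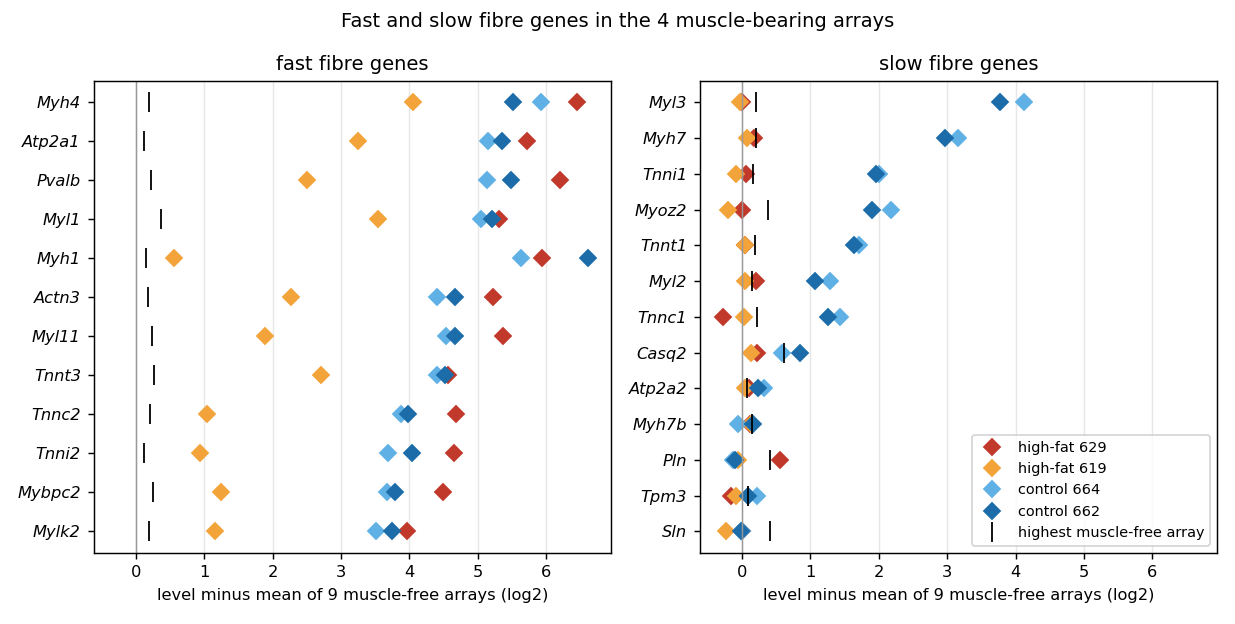
Level above the mean of the 9 muscle-free arrays (log2) for 12 fast fibre genes and 13 slow fibre genes in the 4 muscle-bearing arrays, with a black tick at the highest muscle-free array. The 12 listed fast genes, which leave out Myh2 and Tpm1, exceed the tick in all 4 arrays. Myl3, Myh7, Tnni1, Myoz2, Tnnt1 and Tnnc1 exceed it only in control 662 and control 664.

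Whether the difference between daughters of high-fat and control fathers was unlike in the 2 sets was tested with an interaction term in limma over all genes. It called 9 of 14506 genes at an adjusted p under 0.05 (0.062%), all lower in muscle-bearing high-fat arrays, and 227 (1.56%) had an unadjusted p under 0.05. The 9 were Myl3, Myh7, Myh2, Tnni1, Tnnt1, Myoz2, Tnnc1, Myl2 and Ankrd2, all on the skeletal muscle lists. For Myl3 the means were 10.86 in the 2 muscle-bearing control arrays, 6.91 in the 2 muscle-bearing high-fat arrays, and 6.99 and 6.84 in muscle-free control and high-fat arrays, which gave a difference of differences of -3.81. For Myh7 it was -2.92 and for Myh2 -3.65. The smallest of the 9 was Ankrd2, an ankyrin repeat protein of slow fibres, at -1.02. The contrast rests on 2 arrays against 2 chosen by a muscle gene, which also differ in number range, and number range and diet cannot be told apart there. The fit takes 1 spread per gene over all 13 arrays, most of them without muscle signal, so the term is given as a count and sizes only. All 9 genes had a mean level below the median of all genes, 8.14, and none was tested when only genes above it were kept. The count was 69 without high-fat 629, when high-fat 619 with its weak muscle signal alone stood for high-fat fathers, and 8 or 9, with 8 or 9 of the genes shared, without any other single array.

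Outside the skeletal muscle lists 44 genes were called higher in muscle-bearing arrays, with differences of 0.39 to 4.12. The p-values here compare sets that were read from a muscle gene on the same arrays. The 12 with the smallest p began with Tmod4, a cap of the thin filament's slow-growing end, at 11.40, 10.65, 8.03 and 11.63 in control 662, control 664, high-fat 619 and high-fat 629, against 6.08 to 6.51 in muscle-free arrays (median 6.28), a difference of 4.12 ± 0.46 (limma, adjusted p = 0.00045). Hjv, hemojuvelin, a co-receptor for bone morphogenetic proteins in iron control, was 10.45, 10.24, 7.80 and 10.88 against 6.42 to 6.88 (median 6.65), a difference of 3.22 ± 0.39 (adjusted p = 0.000773). Neither overlapped between the sets. These were the only 2 of 26 genes with a difference above 3 that were not on the muscle lists.

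The imprinted noncoding RNA H19 was also higher in muscle-bearing arrays. It stood at 12.13, 11.92, 10.72 and 12.47 in control 662, control 664, high-fat 619 and high-fat 629, and at 8.37 to 10.22 in muscle-free arrays (median 9.65), a difference of 2.43 ± 0.33 (limma, adjusted p = 0.00228). The sets did not overlap, and the spread of H19 among muscle-free arrays was wider than that of Acta1 or Ckm. Other sarcomere genes among the 12 were Mypn, the Z disc protein myopalladin (2.69), and Tpm2, beta-tropomyosin (2.90). Tpm2 overlapped, since control 658 reached 9.16 and high-fat 619 stood at 9.14. Genes of energy control were Prkag3, a regulatory subunit of AMP-activated kinase typical of fast muscle (1.65), and Fitm1, which partitions fat into droplets (1.53). The remaining ones were Asb11, a ubiquitin ligase adaptor (2.92), the splicing regulator Rbfox1 (2.01), Eef1a2, the elongation factor form of muscle and neurons (2.11), Pde4dip, which anchors a phosphodiesterase (1.25), and Lynx1, a modulator of nicotinic receptors (1.19). Their adjusted p-values in limma ran from 0.00129 for Mypn to 0.00975 for Fitm1, and each was higher in all 4 muscle-bearing arrays than the muscle-free median. Sarcomere genes such as Mypn and Tpm2 can travel with the gene that chose the arrays, as listed genes do. These p-values are therefore a description and no separate support.

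No gene passed the threshold as lower in muscle-bearing arrays, although 7858 of 14506 genes had a difference below 0. Of the 12 with the smallest p, the lead was Tgfb1i1, a focal adhesion protein of smooth muscle and fibroblasts, at 10.52, 10.76, 10.64 and 10.59 in control 662, control 664, high-fat 619 and high-fat 629, against 10.76 to 11.06 (median 10.94), a difference of -0.30 ± 0.06 (limma, adjusted p = 0.0544). Slc7a11, the cystine transporter, was 5.90, 6.43, 5.92 and 6.10 against 6.36 to 6.79 (median 6.53), a difference of -0.45 ± 0.10 (adjusted p = 0.0717). Neither passed the threshold. Both passed with array weights. Tgfb1i1 also passed after centring, with the graded Myh4 level and without high-fat 619, and Slc7a11 without control 664. With array weights 24 genes were called lower, and without control 658 and high-fat 619 together, a setting added after seeing the data, 17 were. Sema5b, a semaphorin, differed by -0.29, Cyb5r3, cytochrome b5 reductase, by -0.26, and Adcy5, an adenylate cyclase, by -0.47. All of these were called with array weights, and Sema5b also after renewed quantile normalization and after centring. The others were the odorant receptors Olr1057 (-0.90) and Or1x2b (-0.29), Fbxo48 (-0.26), Il36rn (-0.29), Gng5 (-0.20), Pcsk1n (-0.20) and the erythropoietin receptor Epor (-0.20). Olr1057, Or1x2b and Fbxo48 were called with array weights. Olr1057 was also called without high-fat 629, and Fbxo48 without high-fat 619, alone or together with control 658. By comparison, 93 genes differed by more than 1 log2 unit upwards and 2 downwards. These 2, named after their values were seen, were the interferon-induced Ifit1 (-1.91 ± 0.72, adjusted p = 0.58) and Spetex2g (-1.09 ± 0.64, adjusted p = 0.897), and both overlapped between the sets.

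Genes of the fat cell itself differed little between the sets. Over 30 adipocyte genes the median difference was -0.03, with 14 above 0, and 0 passed an adjusted p under 0.05 in limma, while 2 were higher (6.67%, against 4.3% of all genes) and 3 lower (10%, against 1.86%) at an unadjusted p under 0.05. Pparg, the nuclear receptor that drives adipocyte differentiation, differed by 0.00 ± 0.08 and Adipoq by -0.11 ± 0.06. Lep, the hormone leptin, was 9.94, 10.78, 10.31 and 9.44 in control 662, control 664, high-fat 619 and high-fat 629, and 10.27 to 11.26 in muscle-free arrays (median 10.70), a difference of -0.72 ± 0.24 (adjusted p = 0.42). High-fat 629 and control 662 lay below the muscle-free range, and control 664 and high-fat 619 lay within it. Slc2a4, the insulin-responsive glucose transporter of both fat and muscle, was 9.54, 9.29, 8.76 and 9.56 against 8.59 to 9.41 (median 8.92), a difference of 0.36 ± 0.16 (adjusted p = 0.743). Without high-fat 619 its difference was 0.58 ± 0.12 and it was called.

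Mitochondrial genes used by fat and muscle alike leaned upward as groups, without single calls. Of 30 genes of the respiratory chain and citric acid cycle 26 were above 0, with a median of 0.16, and 13 were higher (43.3%, against 4.3% of all genes) and 0 lower at an unadjusted p under 0.05. Of 18 genes of fatty acid oxidation 14 were above 0, with a median of 0.18, and 7 were higher (38.9%) and 0 lower at that level. In both lists 0 genes passed the adjusted threshold. Examples were Ndufs1, a subunit of complex I (0.35 ± 0.11), Pdha1, of pyruvate dehydrogenase (0.37 ± 0.14), and Hadhb, of the trifunctional protein (0.39 ± 0.13). The mean level of the respiratory list was 11.17, 10.95, 11.08 and 11.30 in control 662, control 664, high-fat 619 and high-fat 629, against 10.84 to 11.16 in muscle-free arrays, so the sets overlapped. That of the fatty acid oxidation list was 10.99, 10.62, 10.89 and 11.13 in the same order, and reached 11.00 in muscle-free high-fat 663. Control 662, high-fat 629 and high-fat 663 were also the arrays with the highest levels of the brown fat gene Ucp1. With the Ucp1 level as a further term, added after seeing the data, the medians were 0.14 for both lists, and the part of brown fat RNA in them was not tested further.

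**Figure D4:**
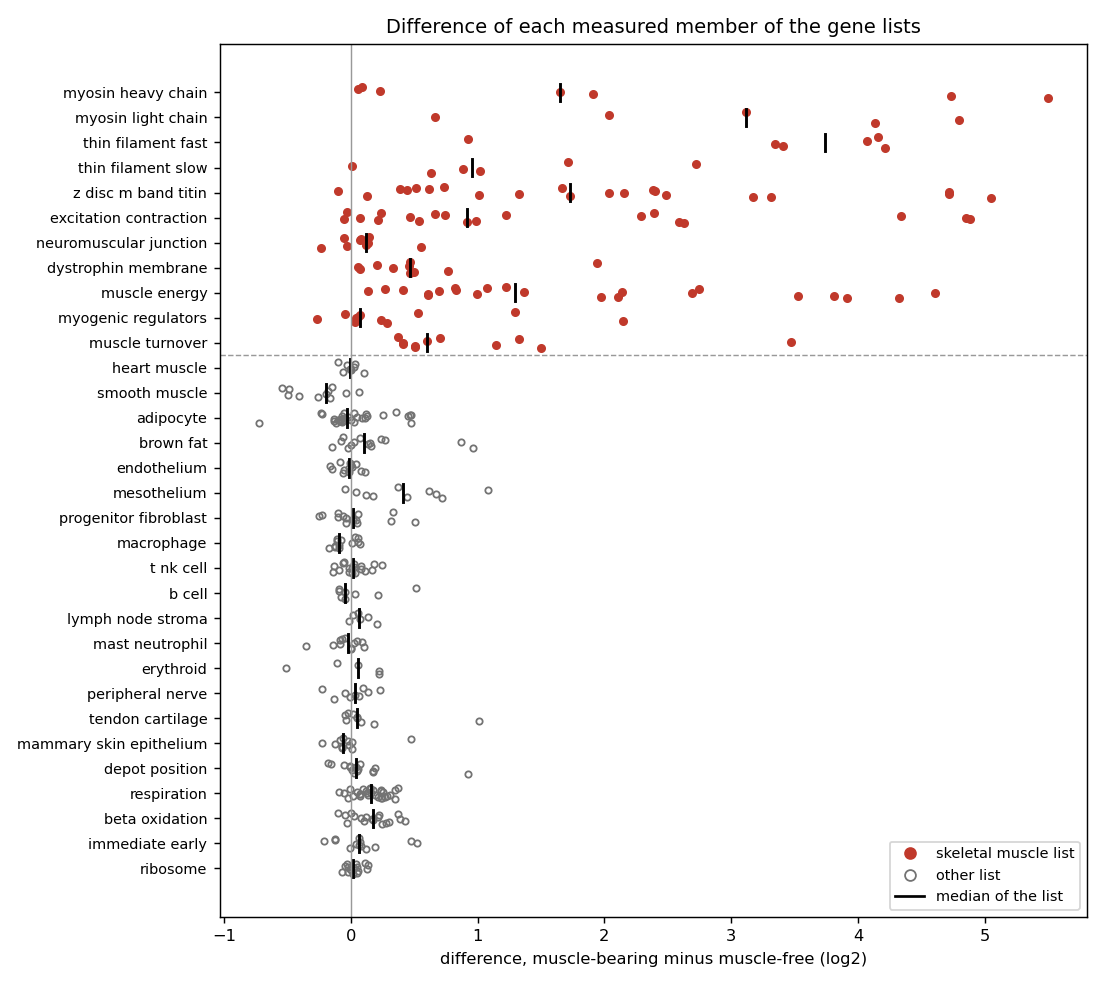
Difference between muscle-bearing and muscle-free arrays (log2) of each measured gene in 32 lists, with skeletal muscle lists in red above the dashed line, other lists as open grey circles and the median of each list as a black bar. Muscle lists reach 5.50, whereas the other 21 lists run from -0.72 to 1.08.

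Brown fat genes moved with some of the muscle-bearing arrays and also with muscle-free ones. Ucp1, the uncoupling protein of brown fat, was 9.76 in control 662, 6.11 in control 664, 6.42 in high-fat 619 and 11.02 in high-fat 629. In muscle-free arrays it ran from 6.24 to 10.96 with a median of 6.45, and high-fat 663 at 10.96 and control 658 at 9.28 were the highest. The difference was 0.96 ± 1.03 (limma, adjusted p = 0.92), and high and low arrays occurred in both sets. Of 14 brown fat genes 9 were above 0, with a median of 0.11, which was 0.03 without high-fat 629 and 0.04 without control 662. Ppargc1a, a coactivator of mitochondrial genes in brown fat and muscle, differed by 0.87 ± 0.38. Some genes of the muscle lists are also used by brown fat. Cpt1b, which admits fatty acids to mitochondria, was 10.57, 9.25, 8.64 and 10.95 in control 662, control 664, high-fat 619 and high-fat 629, and reached 10.22 in muscle-free high-fat 663. Cox8b, a cytochrome oxidase subunit, was 9.94, 8.89, 6.99 and 10.32, and reached 8.61 in high-fat 663. In both genes high-fat 619 lay within the muscle-free range. With the Ucp1 level as a further term, added after seeing the data, 96 genes were called, 89 of them among the 99.

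**Figure D5:**
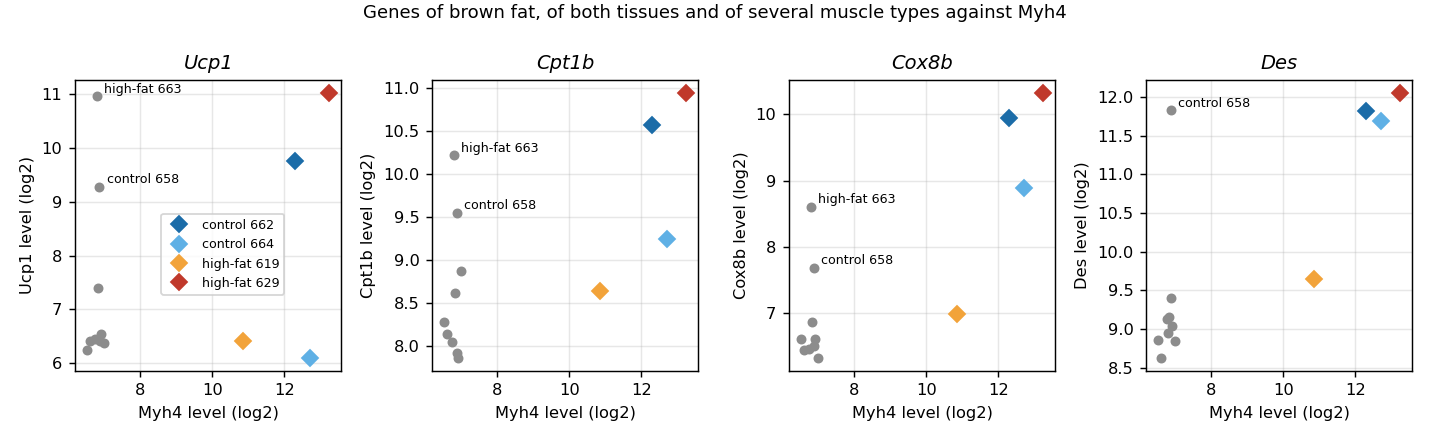
Level (log2) of Ucp1, Cpt1b, Cox8b and Des against the level of Myh4 in the 13 arrays, with muscle-free arrays in grey and muscle-bearing arrays as coloured diamonds. Muscle-free high-fat 663 and control 658 are raised in Ucp1, and control 658 alone among the muscle-free arrays is high in Des.

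Lists for other cell types that a piece of fat could hold gave medians between -0.20 and 0.41. The median was 0.41 for 10 mesothelial genes, 9 of them above 0, with Gpm6a at 1.08 ± 0.48, Msln, mesothelin, at 0.72 ± 0.31 and Krt19 at 0.68 ± 0.32. Msln was 9.39, 10.45, 10.08 and 8.71 in control 662, control 664, high-fat 619 and high-fat 629 and 8.18 to 9.71 in muscle-free arrays (median 9.04), so control 664 and high-fat 619 stood above the muscle-free range. The median was -0.20 for 11 smooth muscle genes, 10 of them below 0, with control 658 high among the muscle-free arrays. It was -0.09 without control 658, -0.12 without control 662 and -0.12 without control 664. The median was -0.01 for endothelium, -0.09 for macrophages, 0.02 for T and NK cells, -0.05 for B cells, 0.03 for peripheral nerve and 0.02 for ribosomal proteins, and leaving out 1 array moved these 6 medians between -0.19 and 0.11. In all, 0 of 284 genes on the 21 other lists passed an adjusted p under 0.05 in limma, with 32 higher (11.3%, against 4.3% of all genes) and 3 lower (1.06%, against 1.86%) at an unadjusted p under 0.05. Among single members, Fmod, fibromodulin of tendon and connective tissue, differed by 1.02 ± 0.29 and Tbx15, a transcription factor that differs between fat depots and also acts in muscle, by 0.93 ± 0.25. Without high-fat 619, 5 of the 284 genes were called, against 223 of all 14506 genes in that setting. The 5 were Tbx15 (1.23), Tp63 (0.63), Slc2a4 (0.58), Uqcrfs1 (0.39) and Atp5f1a (0.32).

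The comparison of daughters of high-fat and control fathers was then run with the muscle split as a covariate. In limma 0 of 14506 genes passed an adjusted p under 0.05, with 731 higher (5.04%) and 368 lower (2.54%) at an unadjusted p under 0.05 and a smallest adjusted p of 0.547. After centring each array on its median these unadjusted counts were 529 and 461. Without the covariate the counts were 0, 786 (5.42%) and 369 (2.54%). Among the 9 muscle-free arrays alone, with 5 control and 4 high-fat daughters, they were 0, 405 (2.79%) and 145 (1%). Muscle-bearing pieces occurred in 2 of 7 control and 2 of 6 high-fat daughters. Acta1 differed by -0.33 ± 0.25 and Ckm by -0.25 ± 0.27 with diet in the fit with the split.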

How the data were processed

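RNA from fat of 13 rats was labelled with biotin and hybridised to Affymetrix arrays, 1 per animal. The deposited table holds log2 levels of 29214 probes; the authors used RMA and Partek, per the submitters' processing notes, and no version is recorded in the notes. A log2 scale fits the values (3.24 to 14.54, array medians 7.66 to 7.72). The number of arrays limits the precision, and detection per probe was not assessed, so differences from dim levels may be understated. Probes were named from the platform annotation: 15310 have 1 gene symbol, 323 several and 13581 are not listed. The brightest probe stood for each of 14506 genes, and Myh4 had 1 probe. No filter on dim probes was set.

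The arrays were split by Myh4 (above 10, below 8) and compared with limma 3.58.1 in R 4.3.3 (lmFit and eBayes, two-sided, Benjamini-Hochberg over all genes, threshold 0.05), with paternal diet as covariate. Differences are muscle-bearing minus muscle-free, with limma's moderated SE. Fits were also run on simulated data that gave all arrays the spread of the muscle-free ones. That run does not cover the wider spread of the muscle-bearing arrays. Named genes were the myosin heavy chains, the isoform pairs, the 2 to 6 members of each list with the largest difference, Adipoq, Lep, Pparg, Slc2a4 and Ucp1, and the 12 higher and 12 lower genes outside the muscle lists with the smallest p, leaving out locus numbers. Other genes were named after their values were seen. The split, the members and the 32 lists were chosen with earlier results of these data known. Other settings were renewed quantile normalization, centring, only brighter genes, mean of probes, intensity trend, array weights, number range as a term or within each range, graded Myh4, no covariate, an adjusted p of 0.1 and leaving out each array. Added after seeing the data were the Ucp1 level as a term, a fit without control 658 and high-fat 619, all probes, and diet with graded Myh4.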

Additional observations from a re-analysis of the deposited data

Results flagged for a closer look

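Of 158 sets of array values checked, 24 held an array that stood apart from the rest of its set by Dixon's ratio. For a single set chance gives about 1 in 20. The sets share arrays and related genes, and some genes were named after their values were seen, so the count cannot be compared with that rate. Among the 4 muscle-bearing arrays, high-fat 619 stood apart as the lowest in the mean of the Z disc, M band and titin list (7.91) and in Myh1 (6.02), Acta1 (11.77), Ttn (9.15), Mb (8.83), Tnnt3 (11.40), Des (9.65) and Cox6a2 (8.34). High-fat 619 was thus the array with least muscle signal in each of these 8 cases.

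Among the 9 muscle-free arrays, control 658 stood apart as the highest in the means of the smooth muscle list (11.13), the Z disc list (7.76), the dystrophin list (8.19) and the muscle turnover list (7.27). It was also the highest in Des (11.83), Pdlim3 (9.35), Tpm2 (9.16), Myh11, smooth muscle myosin (11.92), and Acta1 (9.31). It was the lowest in Tbx15 (6.98) and in the mean of the endothelium list (9.85). Control 627 was the highest in the mean of the myosin light chain list (7.03) and in Pvalb (6.12). High-fat 624 was the highest in the mean of the adipocyte list (12.15), high-fat 620 the lowest in Myod1 (6.65) and high-fat 663 the lowest in Prkag3 (6.73).

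The interaction term of diet and muscle split in limma called 9 genes, which are given by size only. The difference of differences was -3.81 for Myl3, -2.92 for Myh7, -3.65 for Myh2, -1.93 for Tnni1, -1.60 for Tnnt1, -2.0 for Myoz2, -1.51 for Tnnc1, -1.15 for Myl2 and -1.02 for Ankrd2. All 9 are skeletal muscle genes, the term rests on 2 muscle-bearing arrays of each diet chosen by Myh4, and diet and number range cannot be told apart among these 4 arrays. The fit takes 1 spread per gene over all arrays, most of them without muscle signal. In muscle-free control and high-fat arrays Myh7, for example, was 6.97 and 6.95, so the term mainly contrasts the muscle-bearing arrays.

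In a fit over all 29214 probes, 113 were called higher in muscle-bearing arrays and 0 lower. Among the 13581 probes without a gene in the annotation, 34 were called higher and 0 lower. Of these probes 41 differed by more than 1 log2 unit, the largest by 5.70, and they cannot be tied to genes here.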

How the results depend on the processing

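The 99 higher and 0 lower calls of the split became 46 higher among genes above the median level, 227 higher and 24 lower with array weights, 189 and 1 with the Myh4 level as a graded term, and 241 and 17 without control 658 and high-fat 619 (added after seeing the data). Within the numbers 619 to 631 the count was 0. Lower calls were 2 after renewed quantile normalization, 2 after centring and 4 at an adjusted p of 0.1. Leaving out 1 array gave 42 to 221 higher and 0 to 2 lower calls, and 8 to 69 lower calls for the interaction. The interaction gave 0 calls among genes above the median level, a setting that leaves out all 9 genes. The other causes were not tested. Centring changed the unadjusted split from 624 higher and 270 lower to 484 and 659, and renewed quantile normalization to 592 and 626. Of 262 named genes 58 were called, and of their 1533 values under other settings 1357 stayed called and 176 did not, 58 of these within the numbers 619 to 631; 0 changed sign. Of 5425 values of genes not called, 130 became called and 175 differed in sign with neither value called. For diet with the split as a covariate the count stayed at 0 in each setting run. Detection was not assessed, which limits dim genes. No paired analysis was possible because the groups share no animal number.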

Other observations

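The 44 genes called outside the muscle lists included others that were named after their values were seen. Kelch and ubiquitin ligase genes were Klhl31 (1.76 ± 0.31), Klhl38 (1.76 ± 0.34) and Asb12 (1.74 ± 0.36). Genes of glycogen use were Gyg1, the primer protein glycogenin (0.44 ± 0.07), and Pgm1, phosphoglucomutase (1.27 ± 0.22), together with Prkaa2, a catalytic subunit of AMP-activated kinase (1.25 ± 0.22). Slc38a3 (0.87 ± 0.16) and Slc38a4 (1.52 ± 0.30) encode amino acid transporters. Apobec2, a cytidine deaminase relative found in striated muscle, differed by 2.33 ± 0.39, and Cd24, a surface glycoprotein, by 2.10 ± 0.40. Small differences with narrow spread were those of Cfl2, muscle cofilin (0.39 ± 0.08), and Rxrg, a retinoid receptor (0.40 ± 0.08). Their adjusted p-values in limma ran from 0.0099 for Apobec2 to 0.0472 for Cfl2, and are a description only, since the sets were read from a muscle gene. Among these genes, only Klhl31, Gyg1 and Cfl2 did not overlap between the sets.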
